A study of Homo sapiens with 12 samples.

Results

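The cytosolic ribosomal protein genes encode the proteins of the ribosome that works outside the mitochondria. They were taken from the table of all genes by symbol (RPL or RPS followed by a number, with A or X where present, together with RPLP0, RPLP1, RPLP2 and RPSA), which gave 76 of 14828 genes, 46 of the large subunit and 30 of the small subunit. By general knowledge 77 symbols of this form were looked for, and RPS10 was not analysed here. FAU and RACK1, whose products are also ribosomal proteins but whose symbols do not have this form, are described apart.

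The data are RNA-seq of 22Rv1, a human prostate cancer cell line, after depletion of CENPA, the histone H3 variant that marks centromeres. The 3 groups were stable pools that carry a doxycycline-inducible lentiviral vector (pTRIPZ, puromycin selected) with a short hairpin RNA, which was the nontargeting control shNT, shCENPA1 or shCENPA2. All groups, the control included, received doxycycline at 2 µg/ml for 72 h, so no sample without induction is compared. Each group had 2 libraries (1 and 2), and each library was run in lanes 7 and 8. These lanes were averaged, so n = 2 libraries per shRNA, and the p-values measure only the spread between these libraries, which may be technical, since nothing in the labels says that they came from separate cultures.

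Every ribosome holds a large and a small subunit, each built from ribosomal RNA and one copy of most ribosomal proteins, so the proteins are needed in near-equal amounts. Their mRNAs are among the most abundant in growing cells and begin, in vertebrates, with a 5′ terminal oligopyrimidine (TOP) tract, a C followed by a run of C and T, through which mTORC1 and LARP1 control their translation and stability. MYC promotes the transcription of many of these genes, and ribosomal proteins that are not built into ribosomes can bind MDM2 and so act on p53.

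The shared start of these mRNAs is shown for 8 members. RPL14 and RPSA were chosen as the members that passed the test, and RPL28 as the only member called relative to the median member. RPL26 had the widest spread, and RPLP0, RPS6, RPS19 and RPL3 stand for separate roles. Each line gives 15 bases before and 15 bases from the annotated start (RefSeq, GRCh38.p14), 5′ to 3′ on the strand of the gene, with the unbroken run of C and T that begins at the start in capitals.
RPL14 (chr3:40457324-40457353, plus strand): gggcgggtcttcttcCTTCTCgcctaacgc
RPSA (chr3:39406705-39406734, plus strand): tttcctgccgcctgtCTTTTCCgtgctacc
RPL28 (chr19:55385917-55385946, plus strand): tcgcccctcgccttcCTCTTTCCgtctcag
RPL26 (chr17:8383179-8383208, minus strand): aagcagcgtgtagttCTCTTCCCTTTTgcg
RPLP0 (chr12:120201097-120201126, minus strand): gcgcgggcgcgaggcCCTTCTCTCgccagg
RPS6 (chr9:19380222-19380251, minus strand): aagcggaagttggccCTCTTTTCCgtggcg
RPS19 (chr19:41860240-41860269, plus strand): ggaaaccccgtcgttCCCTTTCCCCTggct
RPL3 (chr22:39319609-39319638, minus strand): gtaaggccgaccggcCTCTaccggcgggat
The run is 6 bases in RPL14, 7 in RPSA and 11 in RPS19, and it is 4 in RPL3, where a purine follows. A start with C and at least 4 further C or T was looked for on the strand of the gene. It was present, at any annotated start, in 45 of the 61 members that the RefSeq table holds (73.8%). Of the 10087 other tested genes in it, 6.91% had such a start. Counted by start, 45 of the 76 annotated starts of these members had it (59.2%), against 4.07% of all 35116 annotated starts. RPS19 has a further annotated start without it. The sequences name a letter pattern at the annotated start and were not tested as start sites in these cells.

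CENPA itself was 70.9% lower with shCENPA1 and 85.3% lower with shCENPA2 than with shNT, on the scale of the deposited values, and the hairpins differed by -0.98 log2 (limma's adjusted p = 0.0209). The 6 libraries held 79172294 to 133074655 reads on genes, and the members rested on 128 to 298685 reads per library, so counting error was small beside the spread between libraries for all but the weakest members. Of markers of prostate epithelium HOXB13, KRT8 and KRT18 were well expressed, at 5.70 to 7.90 log2 RPKM with shNT, while KLK3 was at -0.48. Of all 9 such markers, 2 were called lower with shCENPA1, where 4.45% of all genes were. With shCENPA2, 4 were called lower and 1 higher, where 10.5% and 8.05% of all genes were. The part of these markers in the results below was not tested. Of 6 markers of other cell types only COL1A1 was listed, at -0.06 and 0.12 with shNT. The values are log2 RPKM, the log2 of reads per kilobase of gene scaled to library size. In bulk RNA, fewer cells with a given level and less of an mRNA per cell cannot be told apart.

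The members were among the strongest expressed genes of 22Rv1 cells. With shNT their mean log2 RPKM had a median of 7.59 (quartiles 6.82 and 8.49), against a median of 2.36 over all 14624 genes tested, and 99.2% of tested genes lay below the median member. All members passed the filter for the test, a mean of at least -3 log2 RPKM. Among the highest were RPS27 at 10.54 and 10.50 log2 RPKM in the 2 shNT libraries, RPS12 at 9.72 and 9.65, RPL8 at 9.53 and 9.40, and RPL41, the smallest of the ribosomal proteins, at 9.59 and 9.33. The 2 libraries of shNT differed by more than the gap between RPL8 and RPL41, so their order is not settled.

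The lowest levels belonged to RPL36A, at -1.08 and -1.01 log2 RPKM with shNT, RPL17 at 0.84 and 0.58, and RPS15A at 3.05 and 3.19. All 3 are constituents of the ribosome like the others, and RPL36A and RPL17 were listed far below the rest, while RPS15A was nearer to RPL26 and RPS29, the next in order. In the GENCODE 44 annotation (GRCh38), 96.9% of the RPL17 transcript (chr18:49488453-49492508) and 43.8% of the RPL36A transcript (chrX:101390824-101396155) lay inside a readthrough gene on the same strand, RPL17-C18orf32 and RPL36A-HNRNPH2. Only 7 of 76 members had any such overlap, and another over 40% was RPL26 (65.3%, level 3.78), whose low level was read after its value was seen. RPS15A overlapped by 9.90%. Reads that fall in 2 genes may be counted for neither, and the part this plays in the low levels was not tested.

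Level also moved with the gene length by which the authors divided, which counted every annotated exon of a gene. That length ran from 767 to 9782 bases with a median of 3331, whereas the canonical transcripts had a median of 827 bases. Over the 76 members Spearman's rho between the level with shNT and this length was -0.54, a description across genes, which are not independent replicates. RPS29, a short small subunit protein whose length in the table was the 9782 bases, stood at 4.23 and 4.33 log2 RPKM. Comparisons between members are therefore bound to the lengths used, whereas comparisons of 1 member between groups are not. A further limit is shared sequence: over 50% of the 50-base stretches of the canonical transcript occurred in transcripts of other genes for 16 of 76 members and up to 90.0% in RPS3A, where all 36 of the other genes were pseudogenes, and the values of these members are uncertain to that extent.

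**Figure D1:**
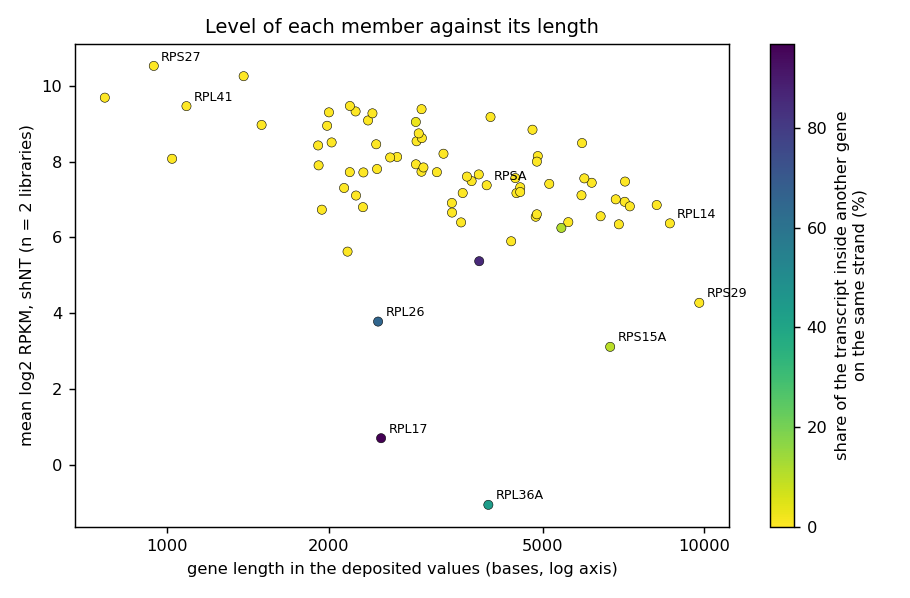
Mean log2 RPKM with shNT (n = 2 libraries) of each of 76 members against the gene length in the deposited values (log axis), coloured by the percent of the canonical transcript inside another gene on the same strand. RPL36A and RPL17 lie far below the others, RPL26 also has over 40% overlap, and RPS29 has the greatest length.

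The family moved together between libraries, also between 2 libraries of the same shRNA. Relative to the mean of both shNT libraries, the median member was at 0.03 and -0.03 log2 in shNT libraries 1 and 2, at -0.12 and 0.13 in shCENPA1 libraries 1 and 2, and at -0.29 and -0.14 in shCENPA2 libraries 1 and 2. Over all tested genes the same medians lay between -0.00 and 0.02. Both shCENPA2 libraries were thus below both shNT libraries, while the shCENPA1 libraries lay on either side of them.

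The members took 6.11% and 5.95% of all reads on genes with shNT, 5.77% and 6.65% with shCENPA1, and 5.06% and 5.54% with shCENPA2. The share was highest in shCENPA1 library 2 and lowest in shCENPA2 library 1. The same 2 libraries were the extremes gene by gene. The highest of the 6 was shCENPA1 library 2 for 55 of 76 members, against 18.9% of all genes. The lowest was shCENPA2 library 1 for 60 of 76, against 18.7% of all genes. Both held for 41 of 76 members, against 4.26% of all genes tested. Once the family median of each library was subtracted, the median SD of a member over the 6 libraries went from 0.18 to 0.09. The SD was smaller for 70 of 76 members. Over all genes the median SD before any subtraction was also 0.18. The value subtracted came from these same members, so part of the fall is built in, and no other gene set was compared.

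**Figure D2:**
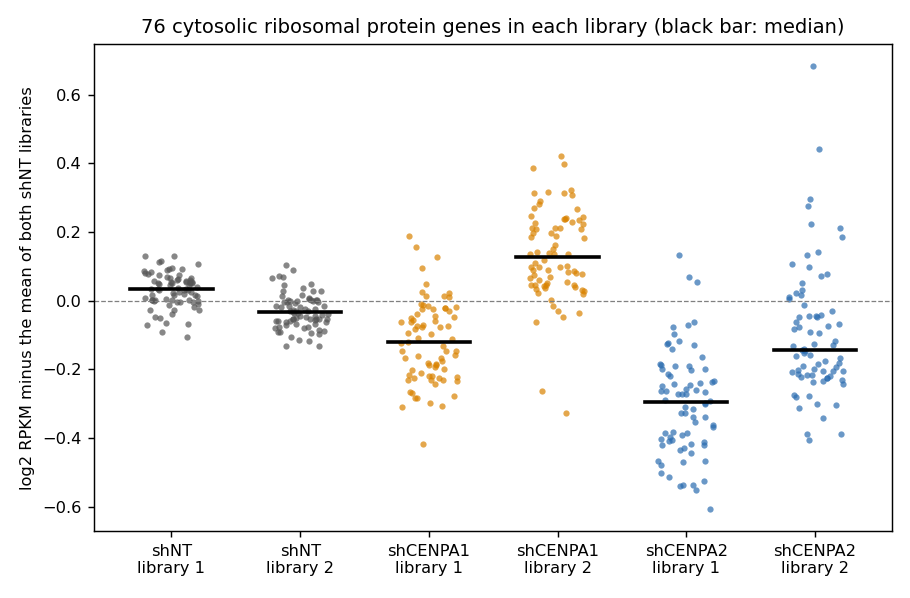
Each point is 1 of 76 members in 1 library, as log2 RPKM minus the mean of both shNT libraries, and the black bar is the median. The medians run from -0.29 in shCENPA2 library 1 to 0.13 in shCENPA1 library 2, and the libraries of shCENPA1 lie on either side of 0.

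Between libraries of the same shRNA, library 2 was above library 1 for 75 of 76 members with shCENPA1, by a median of 0.26, and for 64 of 76 with shCENPA2, by a median of 0.19. With shNT it was above for 19 of 76, and the median difference was -0.07. Over all tested genes library 2 was above library 1 for 54.0%, 49.9% and 49.2% in the same order, and the median differences were 0.03, -0.00 and -0.00. In the deposited values the difference between the shCENPA1 libraries was larger than the median difference between shCENPA2 and shNT given below. After removal of the trend in GC content and transcript length the shCENPA1 library medians were -0.07 and 0.03. Under quantile normalization they were -0.07 and 0.02. Under both settings this gap was smaller than the difference between shCENPA2 and shNT (-0.19 and -0.13). The shCENPA2 library medians were -0.26 and -0.14 after trend removal and -0.23 and -0.06 under quantile normalization. Under quantile normalization the shCENPA2 libraries thus lay further apart than shCENPA2 and shNT did.

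The 2 cases differed in which members moved. With shCENPA1 the difference was much alike across members (SD 0.09), and RPS29, at -0.10, was the exception. With shCENPA2 it ranged from -0.20 in RPL29 to 0.95 in RPL26 (SD 0.22), and the other large values, named after they were seen, were RPS29 at 0.66, RPL39 at 0.63, RPL21 at 0.63, RPS15A at 0.61 and RPS26 at 0.57. RPL29, RPL3 and RPL8 had the lowest values, from -0.20 to -0.15, and have transcripts of 54.3% to 63.5% GC.

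GC content of the transcript moved with the shCENPA2 difference. Over 76 members Spearman's rho between GC content and library 2 minus library 1 was -0.60 with shCENPA2, -0.40 with shNT and 0.06 with shCENPA1, and over 12796 tested genes with a matched transcript it was -0.53, -0.34 and 0.31. These are descriptions across genes that share their libraries. In the 38 members of lower GC content the shCENPA2 libraries were at -0.38 and -0.08 relative to shNT, and in the other 38 at -0.24 and -0.20. With shCENPA1 the pairs were -0.19 and 0.08, and -0.06 and 0.21. With transcript length, the rho over all genes was -0.59 for the shCENPA1 difference and 0.06 for that of shCENPA2, and members have short transcripts (median 827 against 3286 bases). The part of GC content and length in the differences between groups was looked at by removing their trend, with the values given below.

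**Figure D3:**
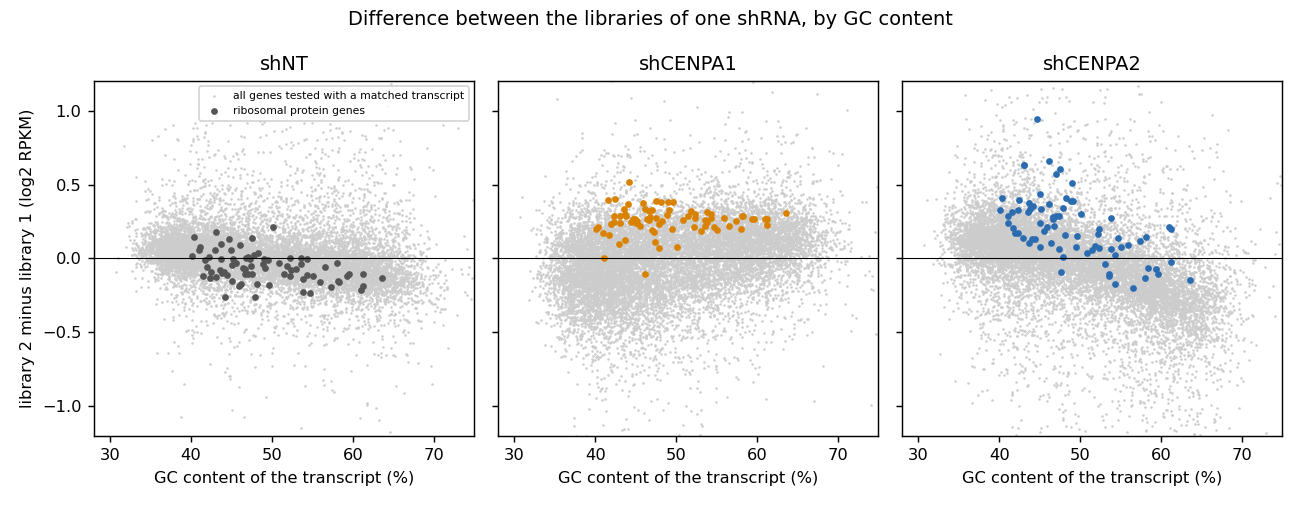
Difference between library 2 and library 1 of each shRNA (log2 RPKM) against GC content of the canonical transcript in percent, for 76 members (coloured) over 12796 tested genes (grey). The axis ends at 1.2 in either direction and leaves out 13, 31 and 131 grey genes with shNT, shCENPA1 and shCENPA2 and no member. With shCENPA1 nearly all members lie above 0 at every GC content, while with shCENPA2 they fall as GC content rises.

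With shCENPA1 the library medians of the family lay on either side of shNT, at -0.12 and 0.13. The median log2 fold change was 0.01 (36 of 76 members below 0), beside 0.00 over all genes, and in limma's test on all 6 libraries with Benjamini-Hochberg adjustment 0 of 76 members passed an adjusted p of 0.05, where 7.14% of all tested genes did. None was beyond a log2 fold change of 1 as well, against 2.65% of all genes. At an unadjusted p under 0.05 there were 2 members, RPS9 among them, against 22.0% of all genes. Both shCENPA1 libraries were above both of shNT for 5 members (29.9% of all genes) and below for 4 (27.1%). The sign of the family median followed the library: it was 0.13 without shCENPA1 library 1 and -0.12 without library 2.

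RPS9, a small subunit protein, was at 5.96 and 5.84 log2 RPKM with shNT and at 6.06 and 6.32 with shCENPA1. RPL3, which lies at the peptidyl transferase centre, was at 8.89 and 8.78 and at 8.93 and 9.24, and RPL28 at 6.40 and 6.29 and at 6.48 and 6.67. Their libraries did not overlap between the groups, and the log2 fold changes were 0.29 ± 0.11 (SE) for RPS9, 0.25 ± 0.14 for RPL3 and 0.23 ± 0.10 for RPL28, with adjusted p from 0.152 to 0.345. RPL36 was at 0.18. At the other end RPS29 was at -0.28, RPL36A at -0.27, RPL21 at -0.18, RPL23A at -0.16 and RPL17 at -0.16. The members at the upper end have transcripts richer in GC than those at the lower end, and over 76 members rho between GC content and this fold change was 0.57. After removal of the GC and length trend the family median was -0.02 and RPS9 was at 0.17 (adjusted p = 0.0630), with 0 of 76 members called, where 15.3% of all genes were. With the 2 lanes of each library entered as repeat runs with an estimated correlation, 3 members passed the test. RPL28 and RPS9 were among them (higher calls were 6.17% of all genes). The limit of that fit is given with shCENPA2 below.

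With shCENPA2 the family median was lower in both libraries. The median log2 fold change was -0.21, beside 0.01 over all genes, and 68 of 76 members were below 0. Both shCENPA2 libraries were below both shNT libraries for 54 of 76 members (71.1%), against 31.0% of all genes, and above them for 1, RPL28, against 31.5%. The members move together between libraries, so these counts are not independent and rest on 2 libraries against 2. The pooled SD of the library medians within a group was 0.12. Few single members passed the test, however: 2 of 76 at an adjusted p of 0.05, both lower, against 10.5% of all genes lower and 18.5% in either direction. None was beyond a log2 fold change of 1, against 6.13% of all genes. The fitted SE of a member had a median of 0.13, and 16 of 76 members had an unadjusted p under 0.05 (32.3% of all genes).

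RPL14 (chr3:40457292-40468587, plus strand), a large subunit protein, was at 6.43 and 6.32 log2 RPKM with shNT, 6.15 and 6.39 with shCENPA1, and 5.83 and 5.96 with shCENPA2. The shCENPA2 libraries were the lowest pair and overlapped neither other group, and the log2 fold change against shNT was -0.47 ± 0.11 (limma's adjusted p = 0.0148). RPSA (chr3:39406716-39426255, plus strand), which is a protein of the small subunit and a laminin receptor, was at 7.38 and 7.37, 7.14 and 7.35, and 6.91 and 6.99. It fell by 0.43 on the log2 scale (SE 0.10, limma's adjusted p = 0.0185), again with shCENPA2 below both other groups. Of the 50-base stretches of RPSA 75.5% occur in transcripts of 40 other genes, 36 of them pseudogenes, and of RPL14 6.0%. In limma's fit without shNT library 1 RPL14 had an adjusted p of 0.124 and RPSA of 0.139, and without shCENPA2 library 1 of 0.0766 and 0.0807. Without shNT library 2 the value was 0.0476 for RPL14 and 0.131 for RPSA. An exact permutation test of 2 against 2 libraries cannot go below a two-sided p of 0.33.

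Other members low in rank, none past the test, were RPS24 (-0.44, adjusted p = 0.0600), RPS27A (-0.38, 0.119), RPL35 (-0.37, 0.0697) and, among those named after their values were seen, RPS25 (-0.37) and RPL32 (-0.37, 0.0532). RPS24, one of the genes mutated in Diamond-Blackfan anaemia, was at 8.04 and 7.95 log2 RPKM with shNT and at 7.39 and 7.72 with shCENPA2. RPS27A, which is made as a fusion to ubiquitin, was at 7.78 and 7.66 and at 7.18 and 7.50. RPL35, at the exit of the peptide tunnel, was at 7.98 and 7.82 and at 7.46 and 7.60. In each the shCENPA2 libraries were below the shNT libraries, and library 1 was the lower.

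The highest members with shCENPA2 were RPL26 (0.21), RPL28 (0.17), RPS26 (0.16), RPL36A (0.04) and RPL36 (0.03). RPL26, which binds the p53 mRNA and MDM2, was at 3.72 and 3.85 log2 RPKM with shNT and at 3.52 and 4.47 with shCENPA2, so its mean rested on library 2 alone. RPS26 was at 6.73 and 6.74 and at 6.60 and 7.17, with the same split. Without shCENPA2 library 1, RPL26 and RPS26 were the only members called, and both were higher (6.02% of all genes were), while the median of the family was -0.14. Without library 2 the median was -0.29 and 6 members were called, all lower (9.55% of all genes were). RPL28 had both libraries above shNT, at 6.48 and 6.56 against 6.40 and 6.29.

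**Figure D4:**
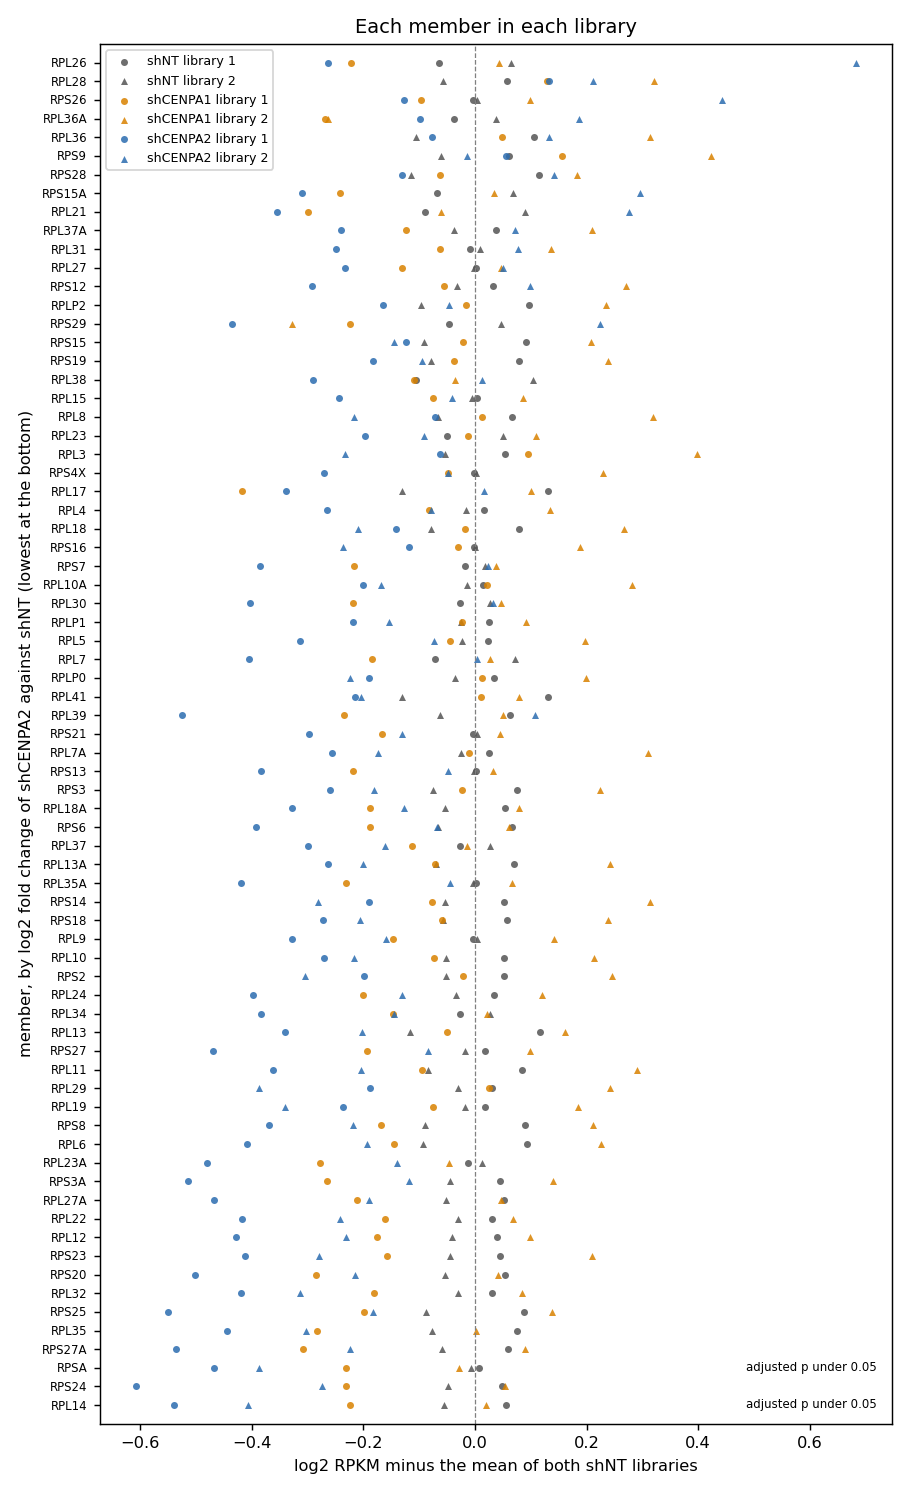
Each row is 1 member, with those not reported here left out, ordered by the log2 fold change of shCENPA2 against shNT with the lowest at the bottom, and each symbol is 1 library as log2 RPKM minus the mean of both shNT libraries. The blue symbols (shCENPA2) lie left of the grey ones (shNT) in most rows, RPL14 and RPSA passed the test, and library 2 of shCENPA1 (orange triangles) is the highest in most rows.

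The lower median with shCENPA2 was present under each way of scaling tried, apart from subtraction of the family median itself. It ran from -0.13 under quantile normalization to -0.22 with the reads rescaled to those outside the members and the mitochondrial genome. After the trend in GC content and transcript length was removed it was -0.19, with library medians of -0.26 and -0.14, and 23 of 76 members were called lower against 16.3% of all genes. With lanes as repeat runs and an estimated correlation 30 members were called, all lower (12.6% of all genes). That fit uses a correlation shared by all genes. Its SE for RPS24 was 0.095, beside 0.094 with all runs taken as separate samples and 0.14 in the fit reported. Its calls of members therefore come close to counting lanes as replicates. The scaling used in the deposited values, 0.97 to 1.02 times the total of the listed genes, moves all genes of a library alike. The share of mitochondrially encoded mRNAs, 6.11% to 8.43% of reads, was highest in shCENPA1 library 2 (8.43%) and in shNT library 1 (8.13%). With reads rescaled to those outside the members and the mitochondrial genome, the library medians of the family were 0.03 and -0.03 with shNT, -0.12 and 0.13 with shCENPA1, and -0.30 and -0.15 with shCENPA2.

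Between the hairpins, shCENPA2 was lower than shCENPA1 by a median of 0.24 (70 of 76 members below 0, beside a median of -0.00 over all genes). Both libraries of shCENPA2 were below both of shCENPA1 for 39 members against 20.2% of all genes, and above for 1, RPL36A, against 17.9%. These counts of members are not independent either. In limma's test 0 of 76 members passed an adjusted p of 0.05 (1.42% of all genes, 0.732% with a log2 fold change beyond 1), while 25 had an unadjusted p under 0.05 (13.3% of all genes). The difference of the hairpins in the family was thus not shown for any single member. The lowest were RPL29 (-0.42 ± 0.12, adjusted p = 0.168), RPL3 (-0.39), RPL11 (-0.38), RPS23 (-0.37) and RPL14 (-0.37), and the highest RPL36A (0.31), RPL26 (0.30), RPS29 (0.17), RPS26 (0.16) and RPL21 (0.14). With repeat runs and an estimated correlation, under the limit given above, 23 were called lower (2.24% of all genes). After removal of the GC and length trend RPL29 and RPSA were (2.90%), and without shCENPA2 library 1 only RPL26 was called, as higher (0.581%).

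Both subunits moved alike. The 46 large subunit genes had medians of 0.02 with shCENPA1 and -0.21 with shCENPA2 against shNT, and the 30 small subunit genes 0.01 and -0.23. Of the P stalk, through which elongation factors are recruited, RPLP0 was at 9.21 and 9.14 log2 RPKM with shNT, 9.19 and 9.37 with shCENPA1, and 8.98 and 8.95 with shCENPA2, with library 2 of shCENPA2 the lower one, unlike the family median. The log2 fold change with shCENPA2 was -0.21 for RPLP0, -0.19 for RPLP1 and -0.11 for RPLP2, and none of the 3 passed the test. The 5S particle, which binds MDM2 when ribosome assembly fails, had RPL5 at 8.56 and 8.51, 8.49 and 8.73, and 8.22 and 8.46, and RPL11 at 9.03 and 8.86, 8.85 and 9.23, and 8.58 and 8.74. With shCENPA2 the log2 fold change was -0.19 for RPL5 and -0.28 for RPL11, and neither passed the test. RPL10, which joins the large subunit last, was at 6.99 and 6.89, 6.87 and 7.15, and 6.67 and 6.72 (-0.24 with shCENPA2).

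RPS6, the substrate of S6 kinase, was at 9.45 and 9.31 log2 RPKM with shNT, 9.19 and 9.44 with shCENPA1, and 8.99 and 9.31 with shCENPA2, so library 2 of shCENPA2 was level with library 2 of shNT. RPS19, the gene most often mutated in Diamond-Blackfan anaemia, was at 7.74 and 7.58, 7.62 and 7.90, and 7.48 and 7.57, a change of -0.14 with shCENPA2. RPS4X was at 8.62 in both shNT libraries and at 8.35 and 8.57 with shCENPA2. RPL22, which has the paralog RPL22L1, was at 6.28 and 6.22, 6.09 and 6.32, and 5.84 and 6.01 (-0.33, adjusted p = 0.0624). RPL41 was at 9.25 and 9.26 with shCENPA2, a change of -0.21. Of the 14 Diamond-Blackfan genes in the table the median change with shCENPA2 was -0.16 and of 8 proteins at the exit tunnel -0.19, with 0 called in either list.

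RPL28 was the member called relative to its own family. When each library was centred on its family median, RPL28 was the only member called in the 3 comparisons: its log2 fold change with shCENPA2 was 0.40 (limma's adjusted p = 0.0384), where 10.9% of all genes were called higher on that scale. The value says that RPL28 did not share the lower level of the median member. It was not alone in this, since 68 of 76 members, not all, were below 0 in the deposited values. RPL26 was at 0.44 on the centred scale, with a wider spread, and was not called (limma's adjusted p = 0.151). In the deposited values RPL28 changed by 0.17 ± 0.10 (limma's adjusted p = 0.276). After removal of the GC and length trend it changed by 0.11 (limma's adjusted p = 0.441).

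The 45 members with the pyrimidine start had medians of 0.03 with shCENPA1 and -0.23 with shCENPA2, and the 16 members in the RefSeq table without it 0.02 and -0.16. In shCENPA2 libraries 1 and 2 the medians were -0.29 and -0.17 with the start and -0.25 and -0.06 without it, and the difference was not tested. Among other genes, 697 with such a start had medians of 0.01 and 0.01. Both members that were called, RPL14 and RPSA, have the start shown above, and so does RPL28, while RPL3, without it, changed by -0.15 with shCENPA2.

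Outside the naming rule, FAU, made as a fusion of the ubiquitin-like FUBI to eS30, was at 7.06 and 7.04 log2 RPKM with shNT, 6.97 and 7.18 with shCENPA1, and 6.93 and 7.07 with shCENPA2. RACK1, a scaffold on the small subunit, was at 7.79 and 7.76, 7.87 and 8.07, and 7.77 and 7.75. RACK1 was thus above shNT in both shCENPA1 libraries. The log2 fold changes of FAU and RACK1 were 0.03 and 0.19 with shCENPA1 and -0.05 and -0.02 with shCENPA2, and neither gene was called in any comparison. Shared with the members was the order of the shCENPA1 libraries, library 2 being the higher in each.

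Of 6 paralogs in the table, which encode variants of members, 2 passed the test and both were lower. RPL39L (chr3:187120948-187180908, minus strand), a variant of RPL39 in the exit tunnel, was at 4.20 and 4.22 log2 RPKM with shNT, 3.69 and 3.85 with shCENPA1, and 3.39 and 3.64 with shCENPA2. All 4 knockdown libraries were below both shNT libraries. The log2 fold change was -0.44 ± 0.11 with shCENPA1 (limma's adjusted p = 0.0430, where 4.45% of all genes were called lower) and -0.70 ± 0.11 with shCENPA2 (adjusted p = 0.00234), and the difference between the hairpins was -0.25 (adjusted p = 0.371). RPL39 itself was at 5.69 and 5.56, 5.39 and 5.68, and 5.10 and 5.73, and was not called. The first call was lost when either shNT or either shCENPA1 library was left out (adjusted p from 0.109 to 0.269), while the second held without each library in turn (adjusted p up to 0.0133).

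RPL22L1 (chr3:170864875-170870208, minus strand), the variant of RPL22, was at 5.67 and 5.54 with shNT, 5.18 and 5.52 with shCENPA1, and 4.78 and 5.26 with shCENPA2. The change with shCENPA2 was -0.58 ± 0.16 (limma's adjusted p = 0.0352), with shCENPA1 -0.25 (adjusted p = 0.408), and the first was -0.34 (adjusted p = 0.173) without shCENPA2 library 1. It was not past the threshold either without shNT library 1 (0.114) or without either shCENPA1 library (0.0549 and 0.0535). RPL7L1 stayed between 4.72 and 4.85 in all 6 libraries, and RPL26L1, RPL36AL and RPS27L changed with shCENPA2 by 0.21, -0.09 and -0.01. RPL36AL, at 7.81 in both shNT libraries, was far above RPL36A, the member listed lowest.

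**Figure D5:**
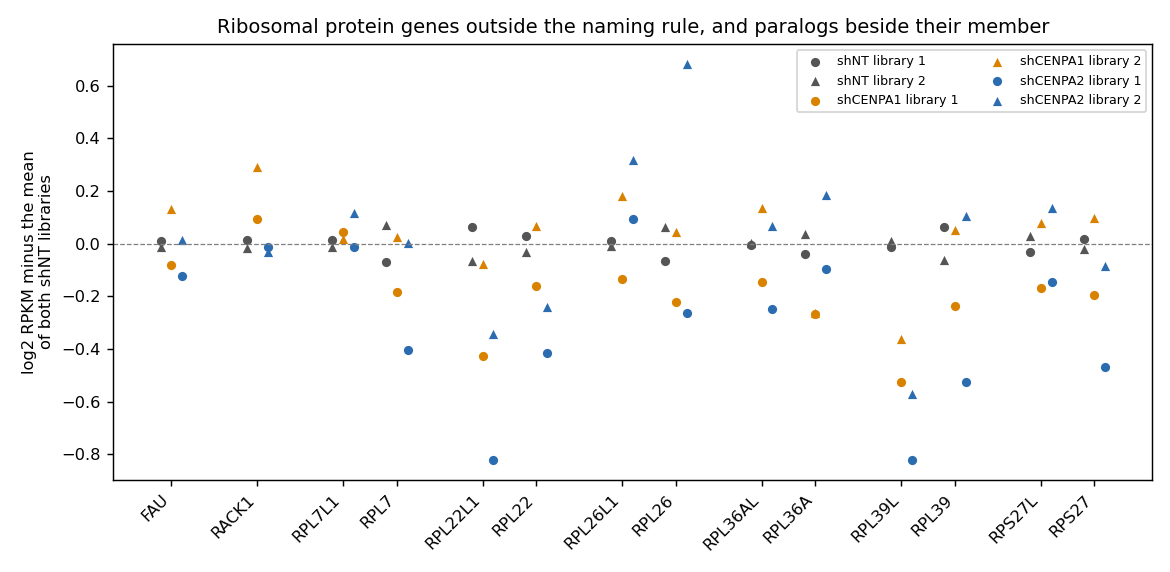
FAU, RACK1 and 6 paralogs, each paralog followed by its member, with each symbol 1 library as log2 RPKM minus the mean of both shNT libraries. RPL39L lies below 0 in all 4 knockdown libraries, from -0.36 to -0.82, and RPL26 has 1 library at 0.68.

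Other mRNAs known as TOP mRNAs were taken as a list. This list of 28 other TOP mRNAs in the table, which shares 20 of its 31 symbols with other lists used here, had medians of 0.02 with shCENPA1 and -0.12 with shCENPA2. With shCENPA2, 5 were called lower (10.5% of all genes) and 1 higher (8.05%). SNHG1, a host of small nucleolar RNAs, was at 4.12 and 4.42 log2 RPKM with shNT and at 3.42 and 3.27 with shCENPA2 (-0.93 ± 0.14, limma's adjusted p = 0.00212). HNRNPA1, an RNA-binding splicing factor, changed by -0.42 and NPM1, the nucleolar chaperone nucleophosmin, by -0.42. NAP1L1, a histone chaperone, changed by -0.41 and IPO5, a nuclear import receptor, by -0.32, and both are named after their values were seen. None of the 5 is a translation factor. SNHG1 held its call without each library in turn, whereas the calls of HNRNPA1, NPM1, NAP1L1 and IPO5 were each lost without either shNT library or without shCENPA2 library 1 (limma's adjusted p from 0.0768 to 0.278), those of NPM1 and IPO5 also without shCENPA2 library 2. EIF3K, a subunit of initiation factor eIF3, was the one called higher (0.34, adjusted p = 0.0465), and this call was lost without any 1 of the shNT and shCENPA2 libraries (adjusted p from 0.0933 to 0.302). With shCENPA1 none was called. Of 30 initiation factors EIF3K was the only one called, with a median of -0.08 with shCENPA2, and of 7 elongation factors 0 were, with medians of 0.22 with shCENPA1 and -0.11 with shCENPA2.

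Among 15 genes that act on TOP mRNAs or on the transcription of this family, 2 rose and 2 fell with each hairpin. Of all genes, 4.45% were called lower with shCENPA1 and 10.5% with shCENPA2. DDIT4, a stress-induced inhibitor of mTORC1, was at 3.30 and 3.06 log2 RPKM with shNT, 4.08 and 4.21 with shCENPA1 and 4.83 and 4.54 with shCENPA2, changes of 0.96 and 1.5 (limma's adjusted p = 0.00170 and 5.81e-05, higher calls being 2.69% and 8.05% of all genes). SESN2, another such inhibitor, changed by 0.68 and 0.85. Without shNT library 2 or either shCENPA1 library the first was not past the threshold (adjusted p from 0.0593 to 0.0709). RPS6KB1, the S6 kinase gene, changed by -0.57 and -0.35, and both calls were lost without either shNT library, the first also without shCENPA1 library 2 and the second without shCENPA2 library 1 (adjusted p from 0.0721 to 0.279). MYC was at 4.86 and 4.79 with shNT, 4.46 and 4.50 with shCENPA1, and 3.70 and 3.58 with shCENPA2. It changed by -1.18 with shCENPA2 (adjusted p = 3.66e-05) and by -0.35 with shCENPA1 (adjusted p = 0.0489), and the latter call was lost without either shNT or either shCENPA1 library (adjusted p from 0.114 to 0.344). Besides CENPA, it was the one gene described here whose hairpins differed in the test (-0.84, adjusted p = 0.00270, lower calls being 1.03% of all genes). Library 2 minus library 1 of MYC was 0.03 with shCENPA1 and -0.13 with shCENPA2, where the median member was at 0.26 and 0.19. Single members ran from -0.20 to 0.95 with shCENPA2, so some lay closer than MYC. What these genes contribute to the levels of the members was not tested.

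The 77 mitochondrial ribosomal protein genes, which serve the ribosome of the mitochondria, were not lower in median with shCENPA2. Their library medians relative to shNT were 0.02 and -0.02 with shNT, -0.02 and 0.18 with shCENPA1, and 0.07 and 0.08 with shCENPA2, so they shared the higher level of shCENPA1 library 2. With shCENPA2, 8 of 77 were called higher and 1 lower, against 8.05% and 10.5% of all genes. For the 80 pseudogenes named after members the order of the libraries was opposite to that of the members with shNT and shCENPA1 and the same with shCENPA2: their medians were -0.11 and 0.11 with shNT, 0.02 and -0.29 with shCENPA1, and -0.08 and 0.13 with shCENPA2, with 3 called lower and 1 higher with shCENPA2. With shCENPA2 the median was -0.19, beside -0.21 over all members, in the 36 members that overlap no gene on their strand and share under 25% of their 50-base stretches with others, a selection made after seeing the data.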

How the data were processed

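RNA was measured in 22Rv1 cells with shNT, shCENPA1 or shCENPA2, in 2 libraries per shRNA and 2 lanes per library. The authors deposited log2 RPKM values of 14828 genes for each run, made with Trim Galore (trimming), STAR (alignment, hg38), HTSeq (counting) and edgeR (scaling), in versions not given in the sources used here. No column of values was left unused. Low values fall on steps, and solving for these steps gave reads within 0.001 of a whole number for 14828 of 14828 genes, and with them depth, gene lengths and the scaling.

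From the deposited log2 values, the lanes of a library were averaged, and limma 3.58.1 (R 4.3.3) was run on the 14624 genes whose mean was not below -3 (all 6 libraries in one fit, contrasts of group means, eBayes with a trend in the variance). Adjusted p-values are Benjamini-Hochberg over all genes tested, and a call is an adjusted p under 0.05. No constant was added beyond that in the deposited values. The members, gene lists and tests were chosen with earlier results of these data known, and the lists were written by hand from general knowledge. Members were named by role, by the 5 highest and 3 lowest levels, by the 5 largest changes in each direction per comparison, or by a call. From other lists the paralogs, the genes outside the naming rule and the 3 largest changes were taken. GC content and length are from the canonical GENCODE 44 transcript of 12975 genes (87.5%). The fit and the recovery were tested on simulated data. Alternatives covered lanes, filters, added constants, scalings, the variance model, voom on recovered reads, trends in length and GC content, list membership and each library left out. Deviations of same-numbered libraries had correlations of -0.06 to -0.14 across all genes. Across the members these were -0.45 for shNT and shCENPA1, 0.42 for shNT and shCENPA2 and -0.01 for both hairpins. Such correlations do not register a shift that the members share. With shCENPA1 the higher-numbered library was above the other for 75 of 76 members, and with shCENPA2 for 64. With shNT it was above for 19. No pairing was used in the fit reported, and the calls with the library number as a block are given below. Some members and listed genes are not reported here by name or in the plots by gene, and all of them stay in the counts and medians.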

Additional observations from a re-analysis of the deposited data

Results flagged for a closer look

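Of the genes described, CENPA and MYC were singled out because their changes differed between the hairpins by a test of the difference itself. For CENPA, the targeted gene, shCENPA2 was lower than shCENPA1 by a log2 difference of -0.98 (limma's adjusted p = 0.0209), and the difference was not past the threshold without either shCENPA1 library, without shCENPA2 library 2, with 1 added to RPKM, with voom or after centring on the family median (adjusted p from 0.0571 to 0.212). For MYC, shCENPA2 was lower than shCENPA1 by a log2 difference of -0.84 (limma's adjusted p = 0.00270), with both shCENPA2 libraries below both shCENPA1 libraries. The difference was not past the threshold without shCENPA1 library 2 (-0.82, adjusted p = 0.0626) or after centring on the family median (-0.63, adjusted p = 0.106). No member of the family was singled out in this way. With 2 libraries per group, no sample could be tested for standing apart from its group.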

How the results depend on the processing

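The median log2 fold change of the family with shCENPA2 against shNT was negative under all 28 alternatives run (-0.29 to -0.13). That against shCENPA1 was likewise (-0.38 to -0.11). Many of these could not move the median, since they change only the variance model, the filter or a library outside the comparison. Centring on the family median, which takes this change out, is not among the 28. With shCENPA1 against shNT the median took both signs. It ran from -0.12 to 0.13 over the libraries left out and from -0.04 (quantile normalization) to 0.04 over the other settings, so no direction is given. The number of members called with shCENPA2 against shNT, 2, was 43 with the 12 runs taken as separate samples (48.5% of all genes called), 30 with an estimated correlation (23.9%), 23 after removal of the GC and length trend (31.7%), 14 under quantile normalization (19.8%), 9 with voom (21.7%), 6 with only the groups compared (17.6%), 5 when scaled to total reads (18.9%), 4 with a robust variance (19.2%) or after removal of the length trend (20.6%), 1 when centred on the family median (15.4%) or in members of little shared sequence, and 0 without a trend in the variance (16.0%), beside 18.5% in the fit reported. The number also moved with the library left out, while the median log2 fold change of the family stayed between -0.29 and -0.14. For shCENPA2 against shCENPA1, 0 members were called in the fit reported and 43 with separate runs. Separate runs also raised the share of all genes called in the comparison above (48.5% against 18.5%). An estimated correlation gave 23, all lower, where 2.24% of all genes were called lower. Removal of the GC and length trend gave 2, both lower, where 2.90% of all genes were. With shCENPA1 against shNT, separate runs gave 4 members. An estimated correlation gave 3 there, all higher, where 6.17% of all genes were called higher. The cause of these differences was not tested, except that taking lanes as samples counts repeat runs of a library as replicates. The fit with an estimated correlation comes close to this for members such as RPS24, whose SE is given above. With the library number as a replicate block, 0, 2 and 0 members were called in the 3 comparisons, as without it, and EIF3K, IPO5, NPM1, RPS6KB1 (each with shCENPA2) and MYC (with shCENPA1) lost their calls. RPL14 kept its call in 22 of 26 alternatives and RPSA in 21. Of 76 members, 62 changed sign in at least 1 alternative with shCENPA1 and 22 with shCENPA2. The GC and length setting, the scaling to total reads and the selection of members of little shared sequence were chosen after seeing the data. The number of libraries, not depth, limits the precision.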
